A study of Homo sapiens with 6 samples.

Results

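Lymphotoxin beta (LTB), 3 further ligands of the tumor necrosis factor (TNF) superfamily (TNF, TNFSF10 and TNFSF15), 2 NF-kB subunits (NFKB2 and RELB) and 4 NF-kB target genes and regulators (NFKBIA, BIRC3, TNFAIP3 and TNFAIP2) make up a group of 10 genes among the 25442 genes read from the table. The 10 were chosen by name, with earlier results of the comparison between iGLI2 and iEV known, so their differences between those groups are a description and were not tested. The libraries are 6 RNA-seq libraries of YAPC, a human pancreatic cancer line whose state belongs to the classical subtype of the disease. The cells of all 6 were treated with doxycycline (Dox) for 6 days. In the 3 iGLI2 libraries the cells carried a Dox-inducible construct for GLI2, a transcription factor of the Hedgehog pathway, and in the 3 iEV libraries they carried the empty vector, so both groups share the rtTA activator and the Dox. The labels do not say whether the replicates were separate cultures, so p-values measure only the spread between these libraries, which may be technical.

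LTB is a membrane protein that joins lymphotoxin alpha (LTA) to form a surface ligand for the LTB receptor (LTBR). It is best known from lymphocytes, where it guides the formation of lymphoid organs. TNF receptors signal through the canonical NF-kB route, in which IKBKB leads to loss of the inhibitor NFKBIA and frees RELA and NFKB1. LTBR also feeds the noncanonical route, in which the kinase MAP3K14 acts through CHUK on the NFKB2 precursor, and the processed protein pairs with RELB. NFKBIA, NFKB2, RELB, BIRC3, TNFAIP3 and TNFAIP2 are themselves textbook targets of NF-kB.

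Because NF-kB acts by binding kappaB sites, the start regions of the genes were read for that motif. RefSeq promoter windows, from 250 bases before to 50 bases after a start site, were at hand for 9 of the 10 genes (12 windows, GRCh38.p14). The kappaB consensus GGGRNNYYCC (R for A or G, Y for C or T, N for any base) was searched on both strands with overlapping matches kept. It was found in 7 of the 12 windows and in 5 of the 9 genes (LTB, NFKBIA, NFKB2, BIRC3 and TNFAIP3). LTB and NFKB2 each count more than once among the 7. Of all 35116 windows in that table, 11.3% held it, and of all 27305 genes, 13.3%. Most of the 10 genes were named as NF-kB targets, so the higher share describes that choice and is no result of these libraries. A GLI binding motif, GACCACCCA, was found on neither strand in any of the 12 windows and in 0.236% of all windows. With so rare a motif, its absence from 12 windows says little, and bases further than 250 before a start were not searched. These are matches of letters and not measured binding. The stretches that hold the kappaB matches are given here for these 5 genes, with each match in capitals. Each was found once on its chromosome in GRCh37, the build of the expression table, and lies at chr6:31550153-31550452 (LTB, minus strand), chr14:35874007-35874056 (NFKBIA, minus strand), chr10:104154208-104154286 and chr10:104155266-104155470 (NFKB2, upstream and downstream start, plus strand), chr11:102187996-102188109 (BIRC3, plus strand) and chr6:138188309-138188370 (TNFAIP3, plus strand). The LTB sequence is the whole window, and the others are cut around their matches. The other LTB window is shifted by 1 base and holds the same matches, so it is not repeated. A further NFKB2 window held no match, so upstream and downstream refer only to the NFKB2 starts with a match.
LTB: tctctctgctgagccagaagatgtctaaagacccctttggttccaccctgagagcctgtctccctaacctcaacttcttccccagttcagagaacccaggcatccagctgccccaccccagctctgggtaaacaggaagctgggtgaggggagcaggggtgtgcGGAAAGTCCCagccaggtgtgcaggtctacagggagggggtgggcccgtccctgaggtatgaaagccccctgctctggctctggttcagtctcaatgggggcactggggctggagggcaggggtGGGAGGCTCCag
NFKBIA: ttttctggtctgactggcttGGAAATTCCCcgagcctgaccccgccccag
NFKB2, upstream start: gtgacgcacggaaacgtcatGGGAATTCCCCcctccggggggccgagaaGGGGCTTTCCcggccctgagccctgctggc
NFKB2, downstream start: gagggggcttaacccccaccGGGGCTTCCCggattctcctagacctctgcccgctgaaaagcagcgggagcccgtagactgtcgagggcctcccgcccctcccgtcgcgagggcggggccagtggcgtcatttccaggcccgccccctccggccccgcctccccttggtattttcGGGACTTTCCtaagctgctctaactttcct
BIRC3: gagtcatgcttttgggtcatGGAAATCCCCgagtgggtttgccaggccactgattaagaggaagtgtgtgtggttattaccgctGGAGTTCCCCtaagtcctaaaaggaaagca
TNFAIP3: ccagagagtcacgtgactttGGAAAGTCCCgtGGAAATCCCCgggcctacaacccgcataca
The upstream match of LTB lies at positions -86 to -77 from the start and reads GGGACTTTCC on the opposite strand. The same letters were matched in TNFAIP3 at positions -67 to -58 and at the downstream start of NFKB2 at -21 to -12. In NFKBIA the match at -81 to -72 reads GGGAATTTCC on the opposite strand.

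The label check, the purity of the line and the state of the libraries bear on all that follows. GLI2 measured 0.466, 0.412 and 0.344 FPKM (fragments scaled to the length of the transcript and to the fragments of the library) in iEV, in the order of the replicate numbers, and 94.5, 207 and 195 FPKM in iGLI2. Total FPKM was 981344 to 1082687 in iEV and 803149 to 889559 in iGLI2, and the number of fragments behind these values is unknown. Of 7 epithelial markers, 5 averaged 1 FPKM or more, and their summed level was 2145 to 2294 FPKM in iEV and 1959 to 2213 FPKM in iGLI2. The sum hides opposite directions. EPCAM (396 to 418 FPKM in iEV, 521 to 526 in iGLI2) and CDH1 (51.0 to 56.3 and 64.8 to 72.5 FPKM) were higher in iGLI2. CLDN4 was lower (250 to 256 and 188 to 231 FPKM), and the groups overlapped for KRT7 and KRT19. KRT8 and KRT18 were listed at 0 in all 6 libraries, which can be a failed estimate. Of 12 leukocyte markers, CD14 and CD68 averaged 1 FPKM or more, CD2 and MS4A1 were listed at 0 in all 6 libraries, and PTPRC reached at most 0.0343 FPKM. The summed leukocyte markers were at 8.21 to 9.09 FPKM in iEV and at 5.15 to 6.31 FPKM in iGLI2. Within that sum CD14 was lower in iGLI2 (4.10 to 5.26 FPKM in iEV, 1.30 to 1.94 in iGLI2). CD68 overlapped (2.89 to 3.27 and 2.79 to 3.08 FPKM), and CD79A was higher (0.248 to 0.422 and 0.798 to 1.03 FPKM). The summed fibroblast and endothelial markers were at 2.71 to 3.29 FPKM in iEV and 3.25 to 4.32 FPKM in iGLI2. Among these markers only COL1A1 averaged 1 FPKM or more, and it was higher in iGLI2 (1.29 to 1.54 FPKM in iEV, 2.28 to 2.98 in iGLI2). VWF was lower (0.278 to 0.313 and 0.124 to 0.172 FPKM), and the groups overlapped for the others. In bulk libraries, fewer cells with a transcript and less of it per cell cannot be told apart.

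The libraries numbered 1 stood apart for these genes in both groups. Replicate 1 was the lowest library of its group in both iEV and iGLI2 for 9 of the 10 genes, all but TNFSF15, and the same was true of 33.9% of all 12493 genes tested. For 45 other NF-kB target genes that were tested, it was so for 36 (80%), and for the 56 other pathway genes tested it was so for 24 (42.9%). On the log2(FPKM + 1) scale, replicate 1 minus the mean of replicates 2 and 3 had a median over the 10 genes of -0.82 in iEV and -0.70 in iGLI2. Over the 45 other targets the medians were -0.44 and -0.39, and over all genes tested they were -0.01 and -0.06. The difference was therefore seen in empty-vector cells as well as in cells with GLI2. A value of FPKM + 1 more than 2-fold lower in replicate 1 than in the others, in both groups, was found for LTB among the 10 genes, for 8 of the 45 other targets (17.8%) and for 0.328% of all genes. GLI2 itself was also lower in iGLI2 replicate 1 than in iGLI2 replicates 2 and 3. The part of these libraries in the differences between the groups was not tested, and values without both of them, a choice made after seeing the data, are given for each of the 10 genes, for the pathway counts and for the other named genes whose call they alter.

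**Figure D1:**
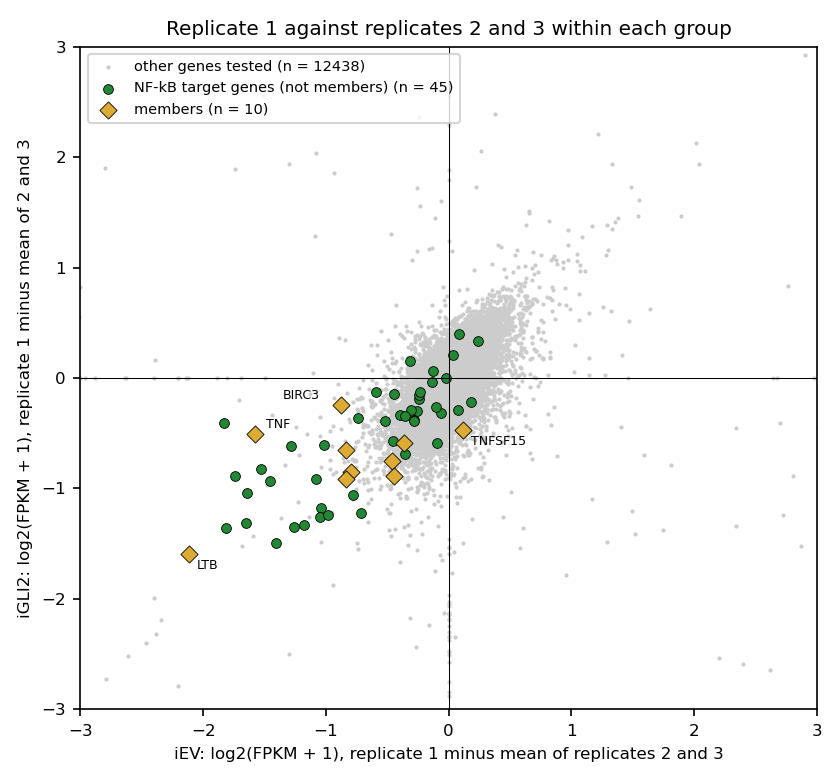
Replicate 1 minus the mean of replicates 2 and 3 on the log2(FPKM + 1) scale, in iEV (horizontal axis) and in iGLI2 (vertical axis), for the 10 genes (diamonds), 45 other NF-kB target genes (large circles) and the other genes tested (small points; 192 genes lie outside the limits of 3). Of the 10 genes, 9 lie below 0 on both axes, with LTB the lowest of them, and TNFSF15 lies to the right of 0 for iEV.

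LTB had the widest difference of the 4 ligands. In replicates 1, 2 and 3, its level in the iEV cells was 22.1, 97.3 and 102 FPKM, and in the iGLI2 cells it was 3.68, 12.9 and 13.4 FPKM. Every iEV library was above every iGLI2 library, although iEV replicate 1 was closer to the iGLI2 libraries than to the other iEV libraries. The means were 73.7 ± 44.7 FPKM in iEV and 9.99 ± 5.47 FPKM in iGLI2 (SD, n = 3 each), a 7.38-fold lower mean in iGLI2, and the log2 fold change of FPKM + 1 was -2.65 (SE 0.72). Compared between the libraries numbered 1 alone, iEV was 6.01-fold above iGLI2, and without those libraries it was 7.57-fold above. Within iEV, replicate 1 was at 0.222 of the mean of the other libraries, and within iGLI2 at 0.280.

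TNF, the founding ligand of the family and a strong inducer of NF-kB, was low in these cells. It measured 0.566, 3.82 and 3.52 FPKM in the iEV libraries and 0.171, 0.706 and 0.631 FPKM in the iGLI2 libraries. The groups overlapped, since iEV replicate 1 lay below iGLI2 replicates 2 and 3. Mean TNF was 2.63 ± 1.80 FPKM in iEV and 0.502 ± 0.289 FPKM in iGLI2 (SD, n = 3 each), 5.24-fold lower in iGLI2, and 5.49-fold lower without the libraries numbered 1. At such levels the log2 fold change of FPKM + 1, -1.13 (SE 0.46), understates the ratio, and TNF passed the filter for testing (at least 1 FPKM on average) only through iEV.

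TNFSF15, a ligand of the death-domain receptor TNFRSF25, had close replicates in iEV. It measured 18.8, 16.7 and 17.7 FPKM in iEV and 7.04, 9.69 and 10.7 FPKM in iGLI2, with no overlap. Its mean was 17.7 ± 1.02 FPKM in iEV and 9.13 ± 1.88 FPKM in iGLI2 (SD, n = 3 each), 1.94-fold lower in iGLI2 (log2 fold change -0.90, SE 0.15) and 1.69-fold lower without the libraries numbered 1.

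TNFSF10, the apoptosis-inducing ligand TRAIL, was the 1 gene of the 10 with a higher mean in iGLI2. Its values were 17.4, 24.9 and 23.3 FPKM in iEV and 20.3, 37.5 and 39.2 FPKM in iGLI2. The value of iGLI2 replicate 1 lay among the iEV values, so the groups overlapped. The means were 21.9 ± 3.93 FPKM and 32.3 ± 10.5 FPKM (SD, n = 3 each), a ratio of 1.48 (log2 fold change 0.50, SE 0.28), and 1.59 without the libraries numbered 1.

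Both noncanonical subunits had lower levels in iGLI2. NFKB2 was at 20.7, 27.2 and 26.5 FPKM in iEV and at 9.12, 13.9 and 14.6 FPKM in iGLI2. RELB was at 12.5, 18.6 and 16.6 FPKM in iEV and at 5.94, 10.4 and 11.0 FPKM in iGLI2. For neither gene did the groups overlap, and in both groups replicate 1 was the lowest. NFKB2 averaged 24.8 ± 3.57 FPKM in iEV and 12.5 ± 2.99 FPKM in iGLI2 (SD, n = 3 each), 1.98-fold lower, with a log2 fold change of -0.95 (SE 0.20). RELB averaged 15.9 ± 3.13 FPKM and 9.10 ± 2.75 FPKM (SD, n = 3 each), 1.75-fold lower, with a log2 fold change of -0.77 (SE 0.25). Between the libraries numbered 1 alone the ratios were 2.27 for NFKB2 and 2.1 for RELB, and without them 1.88 and 1.65.

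NFKBIA and TNFAIP3 act as feedback brakes, the former holding NF-kB in the cytoplasm and the latter editing ubiquitin chains upstream of it. NFKBIA measured 114, 199 and 198 FPKM in iEV and 76.0, 138 and 139 FPKM in iGLI2. TNFAIP3 measured 5.40, 10.6 and 10.3 FPKM in iEV and 2.48, 5.62 and 5.50 FPKM in iGLI2. In both genes iEV replicate 1 lay below iGLI2 replicates 2 and 3, and the groups overlapped. NFKBIA had means of 170 ± 48.8 FPKM in iEV and 118 ± 36 FPKM in iGLI2 (SD, n = 3 each), a 1.45-fold lower mean with a log2 fold change of -0.54 (SE 0.32). TNFAIP3 had means of 8.76 ± 2.92 FPKM and 4.53 ± 1.78 FPKM (SD, n = 3 each), 1.93-fold lower with a log2 fold change of -0.83 (SE 0.34). Between the libraries numbered 1 alone, iEV was 1.5-fold above iGLI2 for NFKBIA and 2.18-fold above for TNFAIP3, and between the means of the others 1.44-fold and 1.88-fold.

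BIRC3, a ubiquitin ligase that holds MAP3K14 low in resting cells and protects from TNF-induced death, had close values in iGLI2. It measured 14.3, 26.5 and 27.6 FPKM in iEV and 3.38, 4.50 and 3.90 FPKM in iGLI2. No iGLI2 library came near the iEV range, and replicate 1 was low in iEV (0.527 of the mean of the others) more than in iGLI2 (0.804). Its means of 22.8 ± 7.40 FPKM and 3.92 ± 0.562 FPKM (SD, n = 3 each) gave a 5.81-fold lower level in iGLI2 and a log2 fold change of -2.22 (SE 0.26). The ratio was 6.45 without the libraries numbered 1 and 4.23 between those libraries alone. BIRC2, the paralog of BIRC3 that starts 7777 bases after its end on chromosome 11, was at 39.3 ± 2.05 FPKM in iEV and 40.9 ± 3.34 FPKM in iGLI2 (SD, n = 3 each), and its log2 fold change of 0.05 did not pass the test (limma adjusted p = 0.671).

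TNFAIP2, a TNF-induced gene named for its response to that cytokine, had the highest mean of the 10 in iEV. Its values were 137, 253 and 240 FPKM in iEV and 72.5, 113 and 116 FPKM in iGLI2. All iEV libraries were above all iGLI2 libraries, with replicate 1 lowest in each group. The means were 210 ± 63.3 FPKM in iEV and 100.5 ± 24.3 FPKM in iGLI2 (SD, n = 3 each), 2.09-fold lower in iGLI2 (log2 fold change -1.04, SE 0.29), and 2.15-fold lower without the libraries numbered 1.

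**Figure D2:**
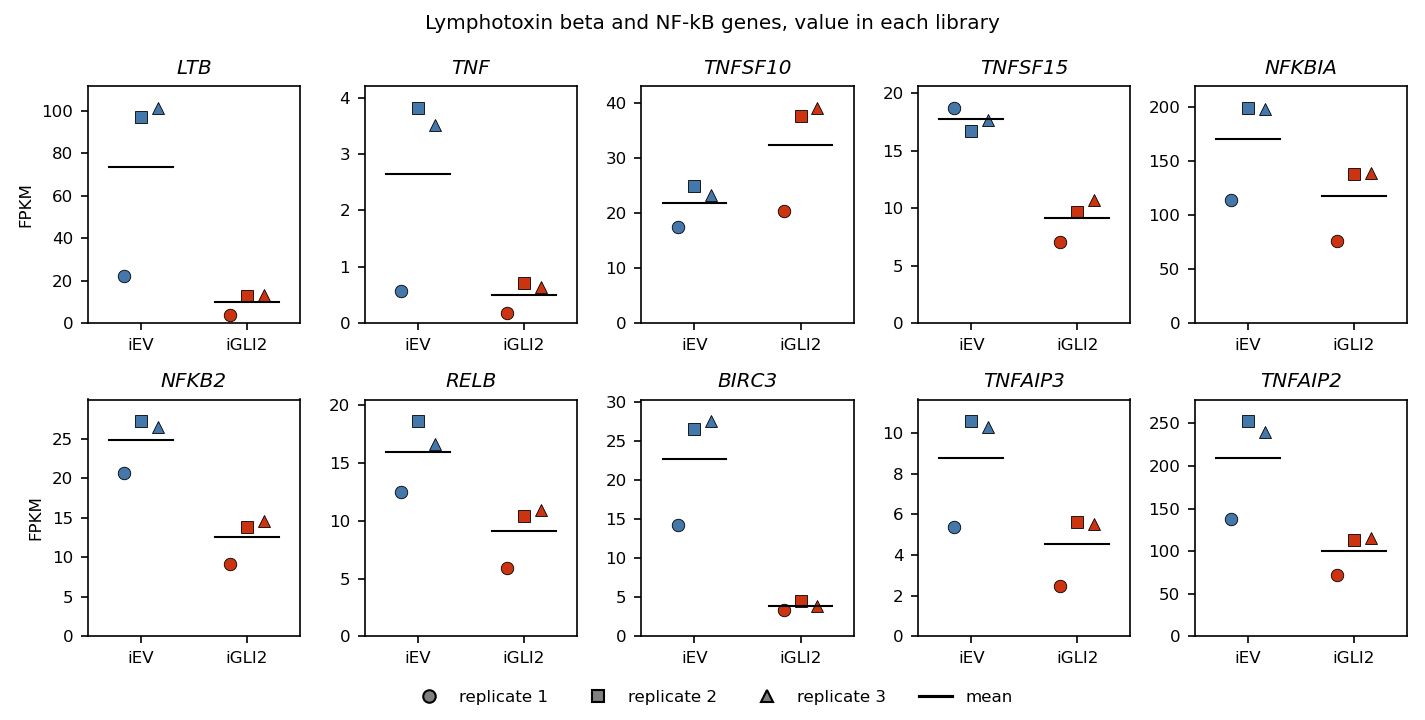
FPKM of each of the 10 genes in the 3 iEV and 3 iGLI2 libraries, with a panel and a vertical axis for each gene, symbols for the replicate numbers and a bar at the mean. The circles (replicate 1) are lowest in both groups in every panel but that of TNFSF15, and TNFSF10 is the panel with the higher mean in iGLI2.

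Counted together, 9 of the 10 genes had a lower mean in iGLI2 and 1 a higher mean. The groups did not overlap for 6 of the 10 (LTB, TNFSF15, NFKB2, RELB, BIRC3 and TNFAIP2), beside 42% of all genes tested, in either direction. Without the libraries numbered 1, with 2 libraries in each group, 10 of 10 did not overlap, beside 75.7% of all genes tested. The median log2 fold change of the 10 was -0.92, against -0.01 over all genes tested. Since this contrast was known when the 10 were chosen, nothing is read from these counts. Among themselves the genes ran from a ratio of iEV to iGLI2 of 7.38 for LTB, 5.81 for BIRC3 and 5.24 for TNF, through 2.09 to 1.75 for TNFAIP2, NFKB2, TNFSF15, TNFAIP3 and RELB, to 1.45 for NFKBIA and 0.677 for TNFSF10.

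The order of the 10 by FPKM differed between the groups. In iEV, LTB was the third gene in each of the 3 libraries, after TNFAIP2 and NFKBIA. In iGLI2, LTB was the seventh in replicate 1 and the fifth in replicates 2 and 3, below TNFSF10 and NFKB2. Mean levels of NFKB2 (24.8 FPKM), BIRC3 (22.8 FPKM) and TNFSF10 (21.9 FPKM) in iEV differed by less than their SDs. In iGLI2 the same 3 genes lay apart, with TNFSF10 at 32.3 FPKM, NFKB2 at 12.5 FPKM and BIRC3 at 3.92 FPKM. LTB (9.99 FPKM), TNFSF15 (9.13 FPKM) and RELB (9.10 FPKM) could not be ranked there beyond their SDs. TNF was the lowest of the 10 in every library. In the hg19 coordinates of the table the genes off chromosome 6 lie at chr3:172223298-172241297 (TNFSF10), chr9:117546915-117568408 (TNFSF15), chr10:104153867-104162286 (NFKB2), chr11:102188181-102210135 (BIRC3), chr14:35870716-35873960 (NFKBIA), chr14:103592664-103603776 (TNFAIP2) and chr19:45504707-45541456 (RELB). TNFAIP3 is listed at chr6:138144807-138204451, a locus that begins before the annotated gene (138188351).

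LTB, TNF and LTA lie side by side on chromosome 6 within the major histocompatibility region. In the coordinates of the table (hg19), LTB spans chr6:31548336-31550202 on the minus strand, with 4 exons in its MANE Select transcript, and TNF spans chr6:31543344-31546112 on the plus strand, ending 2223 bases from LTB. LTA, the partner that LTB needs to form the surface ligand, ends 1243 bases before TNF and reached at most 0.0306 FPKM in any library. The expressed genes on either side did not pass the test. NFKBIL1 was at 14.1 ± 1.67 FPKM in iEV and 15.5 ± 2.61 FPKM in iGLI2 (adjusted p = 0.599), PRRC2A at 53.6 ± 1.47 and 49.9 ± 6.11 FPKM (adjusted p = 0.492), and the merged entry of ATP6V1G2 and DDX39B at 83.7 ± 0.708 and 83.9 ± 9.13 FPKM (adjusted p = 0.985; SD, n = 3 each, limma for all 3). LST1, whose locus begins 3753 bases beyond LTB, was at 0.123, 0.337 and 0.356 FPKM in iEV and at 0, 0 and 0.0519 FPKM in iGLI2, levels too low to test. NCR3, AIF1 and MCCD1 were at or near 0 in all 6 libraries, and 4 small RNA genes listed within 50 kb are not described, since FPKM of so short genes is unstable.

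**Figure D3:**
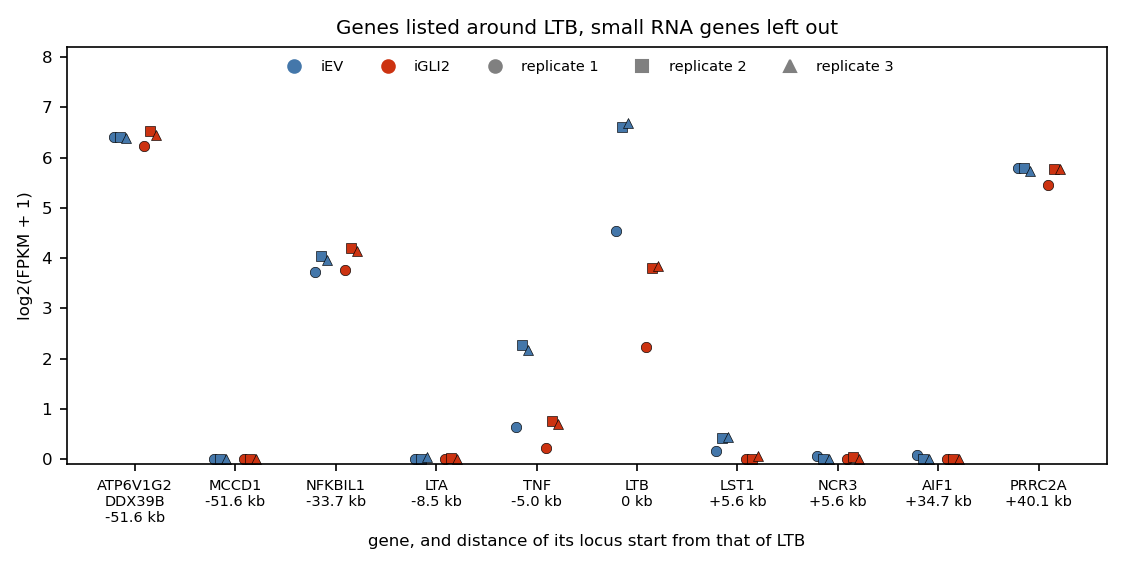
Level of LTB and the genes listed around it, as log2(FPKM + 1) in each library, in order along the chromosome with the distance of each locus start from that of LTB. The iEV and iGLI2 libraries do not overlap for LTB and overlap for TNF (neither tested), while NFKBIL1, PRRC2A and the merged entry of ATP6V1G2 and DDX39B did not pass the test, and LTA is at or near 0.

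To see what the rest of the pathway did, the genes of 6 lists (ligands, receptors, adaptors and enzymes, subunits, inhibitors and targets), also chosen with earlier results known, were taken from a limma test of log2(FPKM + 1) across the 12493 genes that averaged at least 1 FPKM. Beside the 10 genes the lists hold 136 genes, of which 101 were tested, 29 had a mean under 1 FPKM and 6 are merged with other genes in the table. Of the 101, 27 passed an adjusted p of 0.05 (26.7%), beside 21.9% of all genes tested. Of the 101 tested, 3 rose (2.97%), beside 10.1% of all genes tested, and 24 fell (23.8%), beside 11.8% of all genes tested. Over all genes, 46% of the calls were higher in iGLI2. With small RNA genes left out and the libraries rescaled this was 59.4%, and the pathway then had 4 higher and 26 lower. The number rests on the libraries used. Without both libraries numbered 1 it was 62 of 101 (61.4%; 14 higher and 48 lower), beside 44.5% of all genes. It was 32 without iEV replicate 1, 14 without iEV replicate 2 and 14 without iEV replicate 3, beside 17.3%, 9.78% and 10.4% of all genes. It was 28 without iGLI2 replicate 1, 16 without iGLI2 replicate 2 and 14 without iGLI2 replicate 3, beside 30%, 10.9% and 12% of all genes. All calls of genes named here also passed without both libraries numbered 1.

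**Figure D4:**
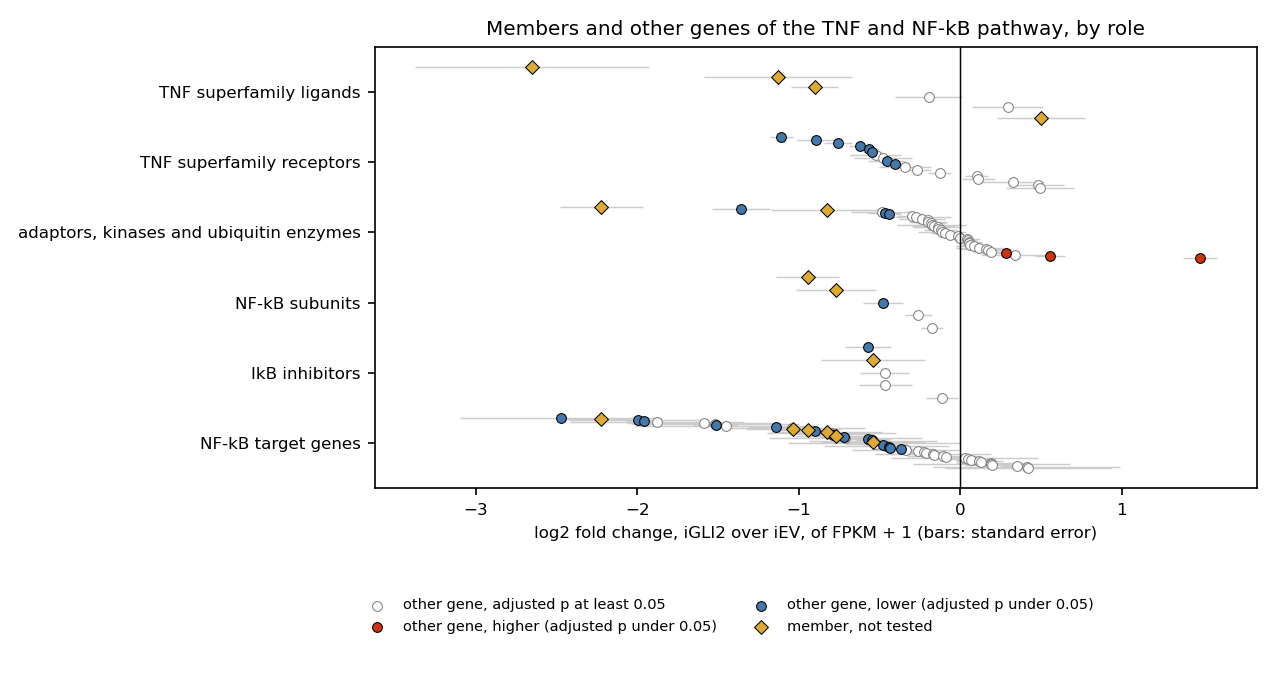
Log2 fold change of FPKM + 1 (iGLI2 over iEV, bars are SE) of the 10 genes (diamonds) and of the other pathway genes tested (circles, filled where the adjusted p is under 0.05), by role, where a gene may stand in more than 1 list. The filled circles of the receptors, subunits, inhibitors and targets all lie below 0, and those above 0 (CARD10, TAB2 and TRAF4) are adaptors.

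Beyond the 4 ligands above, only CD70 and TNFSF9 of the 14 other ligands could be tested, and neither passed, nor reached an unadjusted p under 0.05 in limma. CD70 was at 163 ± 48.8 FPKM in iEV and 139 ± 13.5 FPKM in iGLI2 (SD, n = 3 each, adjusted p = 0.551). TNFSF9 was at 40.5 ± 12.0 and 49.0 ± 8.30 FPKM (SD, n = 3 each, adjusted p = 0.402). Another 10 ligands had a mean under 1 FPKM, LTA and FASLG among them.

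Receptors were the list with the largest share of calls, 8 of 18 tested (44.4%), all lower in iGLI2, beside 11.8% of all genes lower. At an unadjusted p under 0.05, 11 were lower, beside 19.2% of all genes, and 1 was higher, beside 16.5% of all genes. LTBR, the receptor of LTB, went from 47.7 ± 3.40 to 34.6 ± 4.50 FPKM (SD, n = 3 each, log2 fold change -0.46, SE 0.11, adjusted p = 0.036). That call was lost with iEV replicate 1, 2 or 3 or iGLI2 replicate 2 or 3 left out (adjusted p = 0.0528, 0.129, 0.121, 0.0855 and 0.0528). Of the TNF receptors, TNFRSF1B, which lacks a death domain, fell from 7.45 ± 0.610 to 4.0 ± 0.396 FPKM (log2 fold change -0.76, adjusted p = 0.0031). TNFRSF1A, the main TNF receptor of epithelial cells, was at 34 and 28.0 FPKM and did not pass (adjusted p = 0.082), except without iEV replicate 3 (0.0353). For the TNFSF10 ligand, the death receptor TNFRSF10B fell from 58.8 ± 1.26 to 40.0 ± 1.80 FPKM (adjusted p = 0.0024) and the decoy receptor TNFRSF10C from 8.91 ± 0.926 to 4.35 ± 0.671 FPKM (adjusted p = 0.0047). The death receptor TNFRSF10A fell from 18.8 to 13.9 FPKM (adjusted p = 0.022), a call that was lost without iEV replicate 2 (0.0898), iEV replicate 3 (0.0742), iGLI2 replicate 2 (0.0868) or iGLI2 replicate 3 (0.0732). The decoy TNFRSF10D was at 9.32 and 13.2 FPKM and did not pass (adjusted p = 0.156). TNFRSF14, which binds the ligand LIGHT, fell from 78.4 ± 3.05 to 52.6 ± 1.88 FPKM (adjusted p = 0.0023). TNFRSF12A, the receptor of TWEAK, fell from 252 ± 16.2 to 164 ± 4.17 FPKM (adjusted p = 0.0025), and TNFRSF19 fell from 8.37 ± 0.482 to 3.35 ± 0.231 FPKM (adjusted p = 0.00051). TNFRSF25, the receptor of TNFSF15, is merged with PLEKHG5 in the table and has no value of its own.

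Between receptors and NF-kB, 34 adaptors, kinases and ubiquitin enzymes other than BIRC3 and TNFAIP3 were tested, of which 3 rose and 3 fell (17.6%). That share was below the 21.9% of all genes tested that were called. MAP3K14, the kinase that starts the noncanonical route, was at 4.02 and 3.57 FPKM in iEV and iGLI2 (adjusted p = 0.194). TRAF3, which presents MAP3K14 for degradation, was at 11.4 and 9.30 FPKM (adjusted p = 0.422), and CHUK at 19.5 and 22 FPKM (adjusted p = 0.20). None of these 3 passed with all libraries, and neither did IKBKB of the canonical route at 7.46 and 5.86 FPKM (adjusted p = 0.063), which passed without iEV replicate 1 (0.0308). Without both libraries numbered 1, IKBKB and TRAF3 passed as lower (log2 fold change -0.36 and -0.24, adjusted p = 0.0152 and 0.0157) and CHUK as higher (0.19, adjusted p = 0.0262), while MAP3K14 did not pass. TRAF2, an adaptor of both routes, fell from 16.2 to 11.5 FPKM (adjusted p = 0.026). IKBKE, an IKK-related kinase, fell from 13.5 ± 2.41 to 4.65 ± 0.971 FPKM (log2 fold change -1.36, adjusted p = 0.0045), and CYLD, a deubiquitinase that restrains NF-kB, from 4.10 to 2.76 FPKM (adjusted p = 0.011). CARD10, a scaffold that links G protein-coupled receptors to NF-kB, rose from 8.19 ± 1.02 to 24.7 ± 2.19 FPKM (log2 fold change 1.49, adjusted p = 0.00066). TAB2, a partner of the kinase MAP3K7, rose from 28.2 to 42.1 FPKM (adjusted p = 0.011), and TRAF4 from 39.0 to 47.6 FPKM (adjusted p = 0.026). The calls of IKBKE and CARD10 held with each library left out. Those of the others did not. TRAF2 had an adjusted p of 0.103 without iEV replicate 2, 0.0972 without iEV replicate 3, 0.0568 without iGLI2 replicate 2 and 0.0579 without iGLI2 replicate 3. For TRAF4 it was 0.0620, 0.0664 and 0.0938 without iEV replicates 1, 2 and 3, and 0.101 and 0.0957 without iGLI2 replicates 2 and 3. CYLD had 0.0554 and 0.0511 without iEV replicates 2 and 3, and 0.0516 and 0.0502 without iGLI2 replicates 2 and 3. For TAB2 it was 0.0536 without iEV replicate 3 and 0.0507 without iGLI2 replicate 2.

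Of the subunits beside NFKB2 and RELB, NFKB1 fell from 22.6 ± 2.78 to 15.9 ± 1.96 FPKM (SD, n = 3 each, log2 fold change -0.48, SE 0.12, adjusted p = 0.042). RELA was at 73.7 ± 2.44 and 65.4 ± 3.96 FPKM (adjusted p = 0.132) and REL at 2.45 ± 0.193 and 1.88 ± 0.132 FPKM (adjusted p = 0.075), and neither passed, although REL passed as lower without both libraries numbered 1 (adjusted p = 0.0417) and under quantile normalization (0.0448). Of 4 inhibitors other than NFKBIA, NFKBIE fell from 8.13 ± 1.25 to 5.15 ± 0.828 FPKM (log2 fold change -0.57, adjusted p = 0.040), and the other 3 did not pass. The calls of NFKB1 and NFKBIE were lost with any single library left out but iEV replicate 1. With iEV replicates 2 and 3 and iGLI2 replicates 1, 2 and 3 left out in turn, the adjusted p was 0.129, 0.131, 0.0533, 0.0892 and 0.0771 for NFKB1 and 0.135, 0.136, 0.0538, 0.0707 and 0.0858 for NFKBIE.

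Among 45 other target genes of NF-kB, 14 fell (31.1%), beside 11.8% of all genes tested, and 0 rose, beside 10.1%. The 14 include NFKB1, NFKBIE and CYLD, already described in other lists, whose calls were lost with single libraries left out. The median log2 fold change of the 45 was -0.46. In limma at an unadjusted p under 0.05, 22 of the 45 were lower, beside 19.2% of all genes, and 1 was higher, beside 16.5%. The 1 was the apoptosis regulator CFLAR (26.1 ± 1.81 and 33.7 ± 3.55 FPKM, SD, n = 3 each, adjusted p = 0.0504). It passed as higher in 8 of 17 alternatives (adjusted p from 0.0077 to 0.0492), among them both other scalings, the small RNA genes left out, and iGLI2 replicate 1 or both libraries numbered 1 left out, so the count of 0 rests on the settings. CXCL5, a neutrophil-attracting chemokine, fell from 117 ± 14.3 to 29.2 ± 1.93 FPKM (log2 fold change -1.96, adjusted p = 0.00033). PLAU, the urokinase-type plasminogen activator, fell from 329 ± 56.4 to 114 ± 6.51 FPKM (adjusted p = 0.0013). PSMB9, an immunoproteasome subunit, fell from 54.5 to 31.1 FPKM (adjusted p = 0.0040), and BMP2, a growth factor, from 5.72 to 2.60 FPKM (adjusted p = 0.0071). These 4 calls held with each library left out.

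Further targets, named after their values were seen, differed in how they followed the 10 genes. SOD2, the mitochondrial superoxide dismutase, fell from 163 ± 35.7 to 71.8 ± 3.8 FPKM (adjusted p = 0.0073), and the call held with each library left out. IL32, an inflammatory cytokine, was at 14.1, 31.6 and 28.3 FPKM in iEV and at 2.55, 7.22 and 6.80 FPKM in iGLI2. SAA1, an acute-phase protein, was at 10.8, 39.9 and 41.3 FPKM in iEV and at 1.63, 6.92 and 4.74 FPKM in iGLI2. Both were lowest in replicate 1 of each group with groups that did not overlap, the arrangement seen for LTB, and both fell (log2 fold change -2.0 and -2.47, adjusted p = 0.024 and 0.040). The call of IL32 was lost without iEV replicate 2 (0.0875), iEV replicate 3 (0.0891) or iGLI2 replicate 3 (0.0522), and that of SAA1 without iEV replicate 2 (0.130), iEV replicate 3 (0.130), iGLI2 replicate 1 (0.0662), iGLI2 replicate 2 (0.0624) or iGLI2 replicate 3 (0.0918). Other targets were as low in replicate 1 of both groups, and their difference between the groups did not pass with all libraries. CXCL8, a neutrophil chemokine, was at 53.6, 170 and 171 FPKM in iEV and 83.8, 220 and 201 FPKM in iGLI2 (adjusted p = 0.653). LCN2, a siderophore-binding protein, was at 21.9, 52.3 and 49.4 FPKM in iEV and 23.4, 58.8 and 62.1 FPKM in iGLI2 (adjusted p = 0.810). CCL20, a chemokine for CCR6-bearing cells, was at 9.11 ± 3.63 FPKM in iEV and 9.69 ± 5.05 FPKM in iGLI2 (SD, n = 3 each, adjusted p = 0.974). Without both libraries numbered 1, CXCL8 and LCN2 passed as higher in iGLI2 (log2 fold change 0.30 and 0.25, adjusted p = 0.0157 and 0.0218), and CCL20 did not (adjusted p = 0.674). In these 3 genes, replicate 1 was at 0.314 to 0.460 of the mean of the other libraries of its group. IL6 and ICAM1 had lower means in iGLI2 that did not pass with all libraries. IL6 was at 0.519, 4.50 and 4.32 FPKM in iEV and 0.0247, 0.375 and 0.343 FPKM in iGLI2 (adjusted p = 0.090), and it passed without iEV replicate 1 (0.0029). Like TNF, IL6 passed the filter for testing only through iEV (means of 3.12 FPKM in iEV and 0.248 FPKM in iGLI2). Its adjusted p-values are therefore not independent support. ICAM1, an adhesion molecule for leukocytes, was at 34.7 ± 12.9 and 16.8 ± 7.42 FPKM (SD, n = 3 each, adjusted p = 0.157). Without both libraries numbered 1, IL6 and ICAM1 passed as lower (log2 fold change -1.99 and -0.97, adjusted p = 0.00039 and 0.00045).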

How the data were processed

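The submitters' processing notes and the study's methods name Trimmomatic for clipping and trimming by the authors, TopHat2 for alignment to hg19, and Cuffdiff 2.1.1. The deposited table gives 1 value per gene and library. Its header names no unit, and FPKM, made by the authors, was inferred from the form and totals of the values. The gene annotation and the treatment of multiply aligned reads are not given in the sources used here. Scaling by FPKM makes every value depend on the other transcripts of its library, and on short genes it is unstable. The table holds no columns of the authors' comparisons, and the number of value columns with no matching sample is 0.

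Groups and replicate numbers were taken from the sample titles. Of 27024 entries, 1252 lie outside the primary chromosomes and 330 share a name with an entry of higher mean, which left 25442 genes. The 12493 genes that averaged at least 1 FPKM were tested with limma 3.58.1 in R 4.3.3 as log2(FPKM + 1), fitting only the condition, with an intensity trend, two-sided, and Benjamini-Hochberg adjustment over all genes tested at a threshold of 0.05. Log2 fold changes are those of FPKM + 1 and understate the change of low genes. The test by Cuffdiff needs alignments and was not used. Depth could not be recovered from the values, so no counting error is given. The fit was tested on simulated data.

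The 10 genes, the pathway lists and the marker lists were chosen with earlier results of these data known. Named beside the 10 are fixed partners (receptors, adaptors, kinases and subunits of the LTB and TNF routes), the 4 genes with the smallest p in each direction and list among those with an adjusted p under 0.05, and every entry within 50 kb of LTB. CD70 and TNFSF9 are named as the only other ligands tested. CFLAR and the targets said to be so were named after their values were seen. Alternatives were upper quartile scaling, quantile normalization, leaving out small RNA genes with rescaling, a pseudocount of 0.1, no filter, a minimum mean of 5 FPKM, a block for the replicate number or for the digit in the sample code, no trend, each library left out and an adjusted p under 0.01. Leaving out both libraries numbered 1 was added after seeing the data. Promoter sequences are from RefSeq (GRCh38.p14) and were placed on GRCh37 by exact match, and exon counts are from GENCODE lifted to GRCh37. Python 3.11.15, pandas 2.3.3 and matplotlib 3.10.9 were used.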

Additional observations from a re-analysis of the deposited data

How the results depend on the processing

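Of the 101 pathway genes tested, 27 passed (3 higher, 24 lower), and of all genes 2742. Leaving out single libraries, the pathway count was 14 to 32, with 1 to 6 higher and 12 to 29 lower, and the count over all genes 1222 to 3744. An adjusted p under 0.01 gave 13 (1 higher, 12 lower) and 1095 over all genes. Without both libraries numbered 1, chosen after seeing the data, the counts were 62 (14 higher, 48 lower) and 5562, and the cause was not tested. With the replicate block, the counts were 50 (7 higher, 43 lower) and 3928, and TRAF3, IKBKB, IL6 and ICAM1 passed as lower (adjusted p = 0.0216, 0.0323, 0.0404 and 0.0033) and CXCL8 and CFLAR as higher (0.0423 and 0.0225). The numbers were not taken to pair the libraries, since the labels name no pairing. Deviations of same-numbered libraries from their group means correlated across genes with r = 0.204, 0.092 and 0.028. Replicates 1 and 3 of iEV correlated best with the iGLI2 library of the same number, and iEV replicate 2 with iGLI2 replicate 3 (r = 0.117). These values do not settle whether the libraries are paired. A block for the digit in the sample code gave 22 of 101 (21.8%, 2 higher and 20 lower), beside 16.7% of all genes. The calls of LTBR, TRAF4, NFKBIE and SAA1 were then lost (adjusted p = 0.0524, 0.0555, 0.0586 and 0.0579). With no filter, those of NFKB1, NFKBIE and SAA1 were lost (adjusted p = 0.0567, 0.0601 and 0.0559). The other scalings and the pseudocount gave 28 to 30 of 101, beside 22.1% to 24.8% of all genes. With no filter the pathway count was 23 of 129 (17.8%), beside 15.1% of all genes. With a minimum mean of 5 FPKM it was 25 of 75 (33.3%), beside 21.2% of all genes. The median log2 fold change of the 10 genes was -1.09 to -0.75 over the alternatives, that of LTB -3.36 to -2.12, of BIRC3 -2.52 to -2.06 and of TNFSF10 0.34 to 0.80, and none of the 10 changed sign. With no depth known, levels under 1 FPKM, such as those of LTA and LST1 and of TNF in iGLI2, could not be given a counting error.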
